A study of Mus musculus and Mus spretus with 18 samples.

Results

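The change in gene expression between postnatal day 14 and day 56 was followed in the whole brain of Mus musculus. The comparison held 6 of the 18 arrays of the study, chosen by the species and age in their titles: 3 brains of 56-day-old young adults and 3 brains of 14-day-old pups. All 12346 genes of the deposited table were kept. All animals were male and of the inbred, wild-derived strain WSB/EiJ, and brains were taken without the olfactory bulb. Each array carried the RNA of 1 animal, so the groups hold 3 separate animals each. Of the other arrays, 3 come from WSB/EiJ newborns (day 0) and 9 from Mus spretus of the strain SPRET/EiJ at the same 3 ages, also male and dissected alike. They serve here to place the late musculus change, called the late step below. The species are named musculus and spretus from here on.

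In the mouse, the second postnatal week is a time of rapid synapse formation, of growing and branching neurites and of early myelin wrapping by oligodendrocytes. By young adulthood surplus synapses have been removed, receptor and channel subunits have been exchanged for their mature forms, and myelin has thickened. A whole-brain array reads the sum of all cell types. In such bulk tissue, fewer cells of a type and less RNA per cell cannot be told apart.

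The genes are identified by Ensembl number alone. The deposited files do not pair these numbers with gene names, and 0 of 12346 could be matched to a symbol in the reference table used here. No gene is therefore given a name or a function, no sequence is shown, and the labelled tissue could not be checked against its markers. Genes are described by how they changed and by the course they took in spretus, and the 2 genes with the largest change in each direction are given by number. Values are log2 expression levels, so a difference of 1 is a 2-fold change.

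The 6 arrays were alike in scale, with medians between 6.53 and 6.55. Correlations across genes lay between 0.9871 and 0.9902 for a day 56 array against a day 14 array, and between 0.9918 and 0.9952 for arrays of the same age. One array stood apart in a small set of genes. In day 14 replicate 3, 27 genes lay more than 1 log2 unit below both other day 14 arrays and 3 lay as far above them. In each of the other 5 arrays at most 2 genes lay as far below, and at most 1 as far above, the remaining pair of its group. The gap of the 27 genes to the mean of the other day 14 arrays ran from 1.06 to 4.95 log2 units, with a median of 1.55.

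Their median level was 8.06, 8.30 and 8.20 in the 3 brains of day 56, and 8.08, 7.78 and 5.62 in replicates 1, 2 and 3 of day 14. Replicates 1 and 2 of day 14 thus stood near the adult brains, and replicate 3 lay below even the newborn brains, whose medians were 6.92, 6.46 and 6.70. In 17 of the 27 genes replicate 3 was below every newborn array. In 16 of the 27 the other day 14 arrays were above every newborn array. The same genes had medians of 8.14, 8.15 and 7.59 in the spretus day 14 brains, and spretus replicate 3 was the lowest of its group in 25 of them. In the musculus comparison, 11 of these genes had a fitted late change of at least 2-fold when replicate 3 was included, and 0 when it was left out. Their median change was 0.85 with it and 0.15 without it. The genes were chosen for low values in replicate 3, so a larger rise with it than without it follows from that choice. The counts of called genes, the genes changed at least 2-fold and the shares by spretus course are given both ways below. Other results are given with all arrays only, among them the counts by level and the match in sign and call with the spretus late change. What set it apart was not tested, and the labels give no batch or date for any array.

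**Figure D1:**
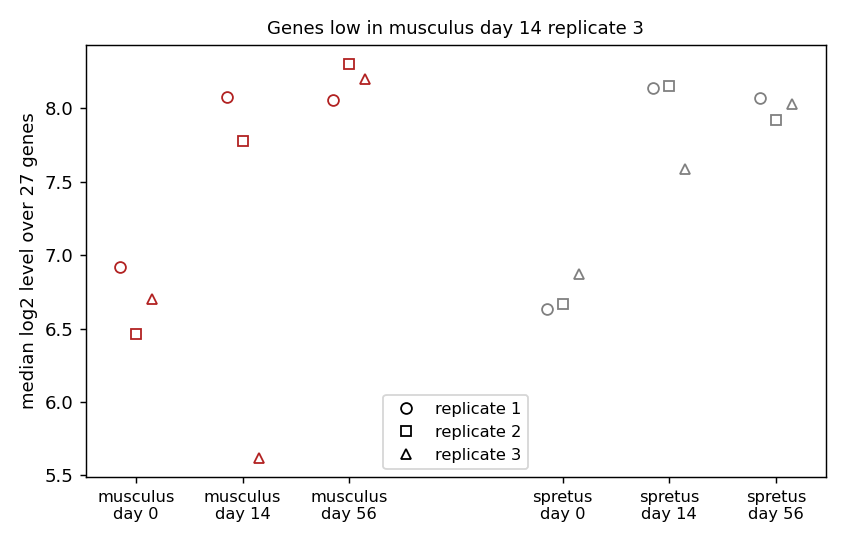
Median log2 level (y axis) of the 27 genes that were more than 1 log2 unit lower in musculus day 14 replicate 3 than in both other arrays of its group, in each of the 18 arrays by species and age (x axis). Each symbol is 1 array, and its shape gives the replicate number. Musculus day 14 replicate 3 lies at 5.62, below all 17 other arrays. Its place below the other arrays of its own group follows from the choice of genes.

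Between day 14 and day 56, 627 genes rose and 842 fell (limma, Benjamini-Hochberg adjusted p under 0.05 over all genes). These are 5.08% and 6.82% of the genes tested, together 11.9%. Most changes were small. For the risen genes the middle 50% of log2 changes lay between 0.36 and 0.57, around a median of 0.44. For the fallen genes it lay between -0.58 and -0.35, around a median of -0.43. Among the risen genes 409 (65.2%) changed by less than 0.5, 195 by 0.5 to 1, and 23 (3.67%) by 1 or more. Among the fallen genes these numbers were 536 (63.7%), 269 and 37 (4.39%). Over all genes the median change was 0.02, and 90% of the changes lay between -0.40 and 0.38.

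In 620 of the 627 risen genes every day 56 brain was above every day 14 brain, and in 816 of the 842 fallen genes every day 56 brain was below. Of all genes, 14.2% and 13.8% were parted in this way, together 28.0%, called or not. A small p with 3 arrays a group goes with groups that do not overlap, so these counts follow from the call. Fewer calls were made with fewer arrays. When each of the 6 arrays was left out in turn, 270 of the risen genes (43.1%) and 399 of the fallen genes (47.4%) were called every time. Of the genes changed at least 2-fold, 21 of 23 risen and 36 of 37 fallen genes were. Leaving out an array also takes away a degree of freedom, and its share in the lost calls was not tested. Without day 14 replicate 3 alone, 474 genes rose and 616 fell, of which 405 and 569 were also called with all arrays. With the 6 arrays fitted alone, the counts were 310 and 436, and with the 9 musculus arrays 411 and 546.

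The share of genes that changed went with their level. Genes were ranked by their mean level over all arrays and cut into 4 equal sets. In the dimmest set, with levels up to 4.76, 1.85% of genes were called, and in the brightest, above 8.24, 21.4%. The direction shifted as well. In the dimmest set 38 genes rose and 19 fell, in the second 151 rose and 101 fell, in the third 213 and 287, and in the brightest 225 and 435. In the sets between them the share called was 8.17% and 16.2%. The spread between replicates did not follow the calls throughout. In order of level, the median SD was 0.13, 0.15, 0.12 and 0.09 at day 56, against 0.14, 0.15, 0.12 and 0.09 at day 14, so it was widest in the second set. The authors' list of masked probes ran along with level too. Genes with no masked probe, with a median level of 4.75, were called in 6.24% of cases, and those with 7 or more, with a median level of 8.06, in 19.2%. Its part in the calls was not tested.

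**Figure D2:**
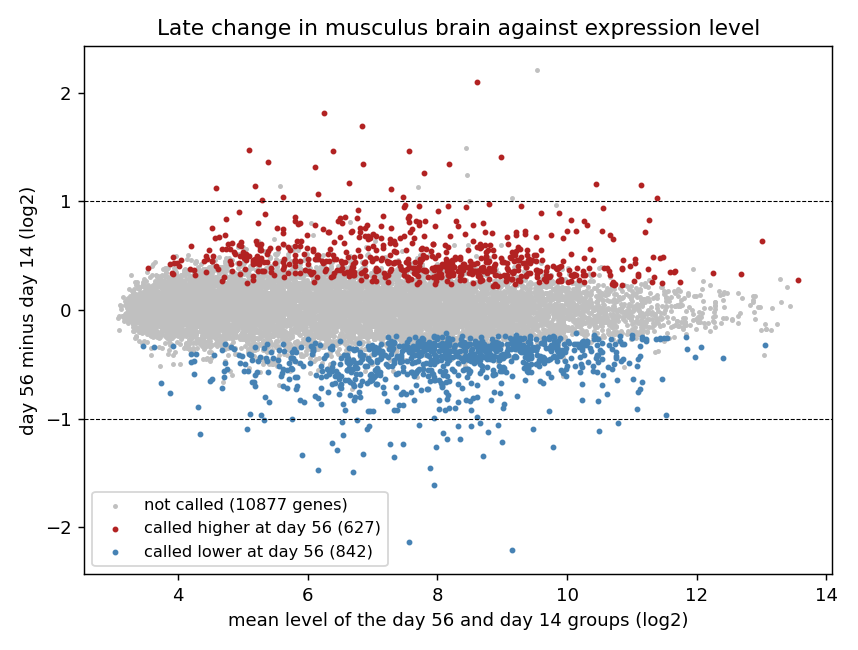
Late change of every gene in musculus, as day 56 minus day 14 in log2 units (y axis), against the mean level of both groups in log2 units (x axis); the dashed lines mark 2-fold changes. Red points are the 627 genes called higher at day 56, blue points the 842 called lower and grey points the other 10877; the 7 grey points at or above the upper line are genes with an SD of 0.69 or more between the replicates of at least 1 group.

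The 23 genes that rose at least 2-fold (0.186% of genes) changed by 1.01 to 2.10 log2 units, with a median of 1.26. Their day 56 levels ran from 5.15 to 11.90 with a median of 7.53, and their day 14 levels from 4.03 to 10.87 with a median of 6.05. At day 14, 4 of them were below 4.76, the limit of the dimmest set, where an array understates fold changes. They were low at birth as well, where their median was 5.11. The groups did not overlap in any of the 23. Of the 27 genes that were low in day 14 replicate 3, 4 were among the 23. Without that array, 22 of the 23 were still called, 16 of them at least 2-fold, and 18 genes rose at least 2-fold in all.

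The 37 genes that fell at least 2-fold (0.300% of genes) changed by between -1.01 and -2.21, with a median of -1.19. Their day 56 levels ran from 3.76 to 10.27 with a median of 7.15, and their day 14 levels from 4.90 to 11.31 with a median of 8.61. At day 56, 2 of them were below 4.76. The newborn median of 8.38 was close to that of the pups, but single genes were not steady before day 14. From birth to day 14, 13 of the 37 were called higher and 18 lower, where 19.6% and 21.8% of all genes were. The 37 were chosen with the same day 14 arrays, which favours high values there. The counts are therefore only set side by side with those of all genes. The groups did not overlap in any of the 37. All 37 were still called at least 2-fold without day 14 replicate 3, which then gave 47 such genes.

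ENSMUSG00000052229 fell most. Its level was 8.00, 8.10 and 8.06 in the day 56 brains, against 10.31, 10.22 and 10.25 in the day 14 brains. No array came within 2 log2 units of the other group. The change was -2.21 ± 0.13 (SE; limma, adjusted p = 6.61e-08), a 4.61-fold drop, and it lay between -2.23 and -2.18 with any 1 array left out. The newborn brains, at 8.59, 7.85 and 7.99, were near the adult ones. Spretus brains had 8.24, 8.30 and 8.37 at day 56, against 10.34, 10.33 and 10.35 at day 14, and 8.58, 8.88 and 8.69 at birth. The day 14 brains were the highest of the 3 ages in both species. The late change, spretus minus musculus, differed by 0.17 ± 0.19 (SE; limma, adjusted p = 0.774), which did not pass the threshold.

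ENSMUSG00000025270 fell next, with more spread between animals. It stood at 6.43, 6.19 and 6.88 at day 56, against 8.11, 8.80 and 8.98 at day 14. The lowest pup was above the highest adult by more than 1 log2 unit. The change was -2.13 ± 0.34 (SE; limma, adjusted p = 0.000671), and -2.39 to -1.96 with 1 array left out. The newborn levels of 7.77, 7.38 and 8.08 lay between those of both later ages. In spretus it stood at 7.38, 7.54 and 7.46 at day 56, against 8.98, 8.28 and 10.02 at day 14, a change of -1.63 (limma, adjusted p = 0.00707).

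ENSMUSG00000050063 rose by 1.81 ± 0.18 (SE; limma, adjusted p = 4.53e-06), or 3.51-fold. Its level was 6.99, 6.95 and 7.53 at day 56, against 5.48, 5.27 and 5.28 at day 14. Day 56 replicate 3 was the highest array, and without it the rise was 1.63. The newborn brains had 4.36, 4.75 and 4.70, so the larger part of the climb from birth to adulthood came after day 14 in this gene. Spretus had 6.21, 5.94 and 6.56 at day 56, against 5.67, 5.18 and 5.21 at day 14. The groups did not overlap there either, and the rise was 0.88 (limma, adjusted p = 0.00538). The difference in change, spretus minus musculus, was -0.93 ± 0.25 (SE; limma, adjusted p = 0.244) and did not pass the threshold.

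ENSMUSG00000040380 had the largest fitted rise among called genes, and its size was set by the array that stood apart. It was at 9.64, 9.66 and 9.67 at day 56, against 8.87, 8.56 and 5.26 at day 14. The adult brains were nearly identical, replicates 1 and 2 of day 14 were within about 1 log2 unit of them, and replicate 3 was near the newborn values of 5.14, 4.48 and 5.08. The fitted change of 2.10 ± 0.58 (SE; limma, adjusted p = 0.0266) became 0.95 without day 14 replicate 3 and stayed called there. Over all 14 alternatives the adjusted p ran from 0.00676 to 0.143, and 8 were past the threshold. In spretus the levels were 9.69, 9.54 and 9.68 at day 56, against 9.39, 9.46 and 8.70 at day 14, and the change of 0.46 was not called (limma, adjusted p = 0.708).

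**Figure D3:**
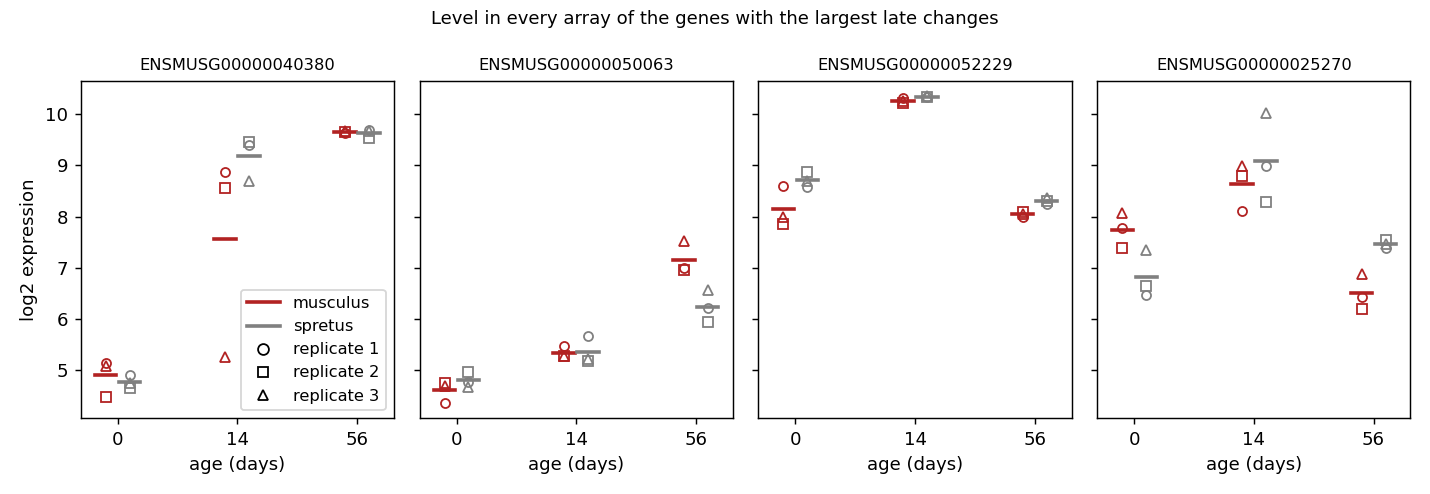
Log2 expression (y axis) by age in days (x axis) of the 2 genes with the largest called rise and the 2 with the largest called fall from day 14 to day 56 in musculus (red), with spretus (grey) beside it. Each symbol is 1 array, its shape gives the replicate number, and bars are group means; the single red triangle at 5.26 in the first panel is musculus day 14 replicate 3.

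The late step was small beside the step before it. From birth to day 14, 2416 genes (19.6%) rose and 2694 (21.8%) fell in musculus, together 41.4%. Both steps use the day 14 arrays, so their values are only set side by side. Median levels of the 627 genes that rose late, in order of age, were 7.06, 7.51 and 8.03, and their median change was 0.25 in the first step and 0.44 in the late step. Those of the 842 genes that fell late were 8.58, 8.42 and 7.92, with median changes of -0.14 and then -0.43. These medians join unlike courses. In the first step 304 of the 627 were called higher and 95 lower, and 235 of the 842 were called higher and 358 lower.

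The spretus arrays allowed the earlier course of a gene to be taken from animals that share no array with the musculus comparison. The calls are still linked, since 1 model gave the same estimate of spread for a gene in both species. A gene with a small spread is called more easily in every step. The part of this in the shares called, here and in the next 2 paragraphs, was not tested. In spretus, 39.5% of genes were called between birth and day 14. Genes that had risen in that step (2369, or 19.2%) rose late in musculus in 14.4% of cases and fell in 7.05%. Genes that had fallen (2508, or 20.3%) rose in 2.23% and fell in 17.4%. Genes not called in that step (7469) rose in 3.07% and fell in 3.20%, against 5.08% and 6.82% of all genes. These 3 classes differed in level, with musculus day 56 medians of 8.03, 7.61 and 5.41, against 6.53 for all genes. The share called went with level, as given above, and its part in these shares was not tested. The median late change in musculus was 0.07, -0.08 and 0.03 in these 3 classes. Without day 14 replicate 3 the first 2 medians were 0.08 and -0.10, and fewer genes were called in every class. Late rises were then called for 12%, 1.40% and 2.08% of the 3 classes and 3.84% of all genes, and late falls for 4.77%, 13.8% and 2.12% and for 4.99% of all genes.

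The shares went with the size of the earlier change. Among genes that rose from birth in spretus, a late rise in musculus was called for 10.9% of those changed by under 0.5, 14.4% of those changed by 0.5 to 1 and 22.9% of those changed by 1 or more. Among genes that fell from birth, a late fall was called for 13.5%, 18.3% and 26.7% in the same bins. Level differed between the bins as well. The musculus day 56 medians were 7.58, 8.05 and 8.85 for the risen genes and 7.93, 7.55 and 6.65 for the fallen genes. The part of level in these shares was not tested. Calls against the earlier direction stood at 41 of the 436 genes that had risen at least 2-fold in spretus, or 9.40%, where 6.82% of all genes fell late in musculus. They stood at 6 of the 382 genes that had fallen at least 2-fold, or 1.57%, where 5.08% of all genes rose. These classes differed in level, with musculus day 56 medians of 8.85 and 6.65. In the brightest of the 4 sets by level, above 8.24, 14.1% of genes fell late, more than the 9.40%. In the third set, from 6.56 to 8.24, 6.90% rose. The difference between the shares was not tested. Without day 14 replicate 3, late rises were called for 7.53%, 12.2% and 22% of the genes that rose from birth, by bin, and late falls for 10.3%, 13.2% and 25.7% of those that fell. The calls against the earlier direction were then 6.88% and 1.05%.

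Genes were then sorted by their whole course in spretus. Of 215 genes that rose in both spretus steps, 62.3% rose late in musculus and 0 fell, with a median change of 0.39. Of 200 that fell in both, 76.0% fell and 0 rose, with a median of -0.44. The 161 genes with a day 14 peak in spretus, which rose and then fell, fell late in musculus in 54.0% of cases, with a median of -0.35. The 110 genes with a day 14 trough had the lowest share of the 4 classes: 22.7% rose late in musculus and 1.82% fell, and the median was 0.18. In order of age, their median levels in musculus were 8.18, 7.48 and 7.62. Without day 14 replicate 3 the 4 medians were 0.42, -0.45, -0.32 and 0.18. The shares called in the direction of the spretus late step were then 58.6%, 67.0%, 43.5% and 16.4%.

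**Figure D4:**
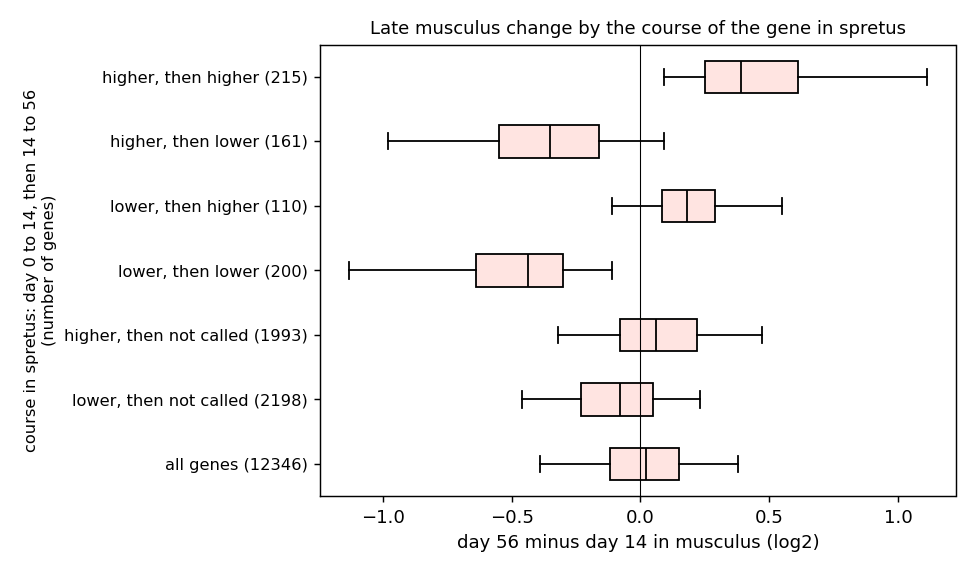
Late change in musculus, as day 56 minus day 14 in log2 units (x axis), of genes grouped by the calls from day 0 to 14 and from day 14 to 56 in spretus (y axis, with the number of genes). Lines in the boxes are medians, boxes the middle 50% of genes and whiskers the 5th to 95th percentile; the medians are 0.39 for genes higher in both spretus steps and -0.44 for genes lower in both, against 0.02 for all genes.

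The genes called late in spretus (8.13% of all) were then followed in each musculus animal. Levels were taken relative to the mean of the 6 musculus arrays for each gene. Over the 491 genes that rose late in spretus the median was 0.171, 0.091 and 0.159 in the day 56 brains, against -0.192, -0.111 and -0.105 in the day 14 brains. Over the 513 genes that fell late in spretus it was -0.192, -0.158 and -0.199 at day 56, against 0.214, 0.147 and 0.162 at day 14. Groups did not overlap in either list. Day 56 replicate 2 was the adult brain nearest to the pups, and day 14 replicate 1 the pup farthest from the adults, in both lists. The median over all genes stayed within -0.017 and 0.008 in these arrays.

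Genes called in musculus mostly moved the same way in spretus, and more often the larger their change was. In spretus, 345 of the 409 musculus genes that rose by under 0.5 also had a positive change (84.4%), 182 of the 195 that rose by 0.5 to 1 (93.3%), and 22 of the 23 that rose at least 2-fold (95.7%). For falling genes the shares with a negative change were 90.1%, 95.5% and 97.3%. Among the 10877 genes not called in musculus the signs matched in 59.6%. The call itself was shared less often, and it rests on the same estimate of spread for a gene in both species. A rise was called in spretus for 27.9%, 36.9% and 73.9% of the risen genes in the 3 bins, and a fall for 27.4%, 45.0% and 78.4% of the fallen ones, where 3.98% and 4.16% of all genes were called higher and lower in spretus.

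The changes were smaller in spretus for genes chosen on the musculus values. Genes that rose at least 2-fold changed by 1.26 in musculus and by 0.87 in spretus at the median, and genes that fell at least 2-fold by -1.19 and -0.94. Choosing genes by their musculus change favours large values there, so these medians do not compare the species.

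The difference in change was therefore tested gene by gene, as the spretus change minus the musculus change. It was called for 5 genes, 0.0405% of those tested, and the sign was positive in all 5. The count moved with the fit: it was 1 with only the 12 arrays of the contrast, 12 with a variance trend and robust estimation, and 3 to 11 with 1 array left out. At an unadjusted p under 0.05 there were 1328 (10.8%). Without any true difference a share of about 0.05 would pass there. The few calls therefore do not show that the other genes changed alike in both species. ENSMUSG00000030560 had the largest difference. In musculus it stood at 7.65, 7.10 and 7.30 at day 56, against 8.66, 8.72 and 8.46 at day 14, a fall without overlap. In spretus it stood at 7.00, 7.22 and 6.91 at day 56, against 7.01, 6.63 and 6.96 at day 14, where the groups overlapped. The changes of -1.26 in musculus and 0.18 in spretus differed by 1.44 ± 0.19 (SE; limma, adjusted p = 0.00525). ENSMUSG00000055148 moved in opposite directions. It was at 6.75, 6.86 and 6.83 at day 56, against 7.06, 7.52 and 7.44 at day 14, in musculus, and at 7.51, 7.67 and 7.75, against 6.99, 7.22 and 7.17, in spretus. Its difference was 1.04 ± 0.15 (SE; limma, adjusted p = 0.00638). Both genes missed the threshold when only the 12 arrays of the contrast were fitted, with adjusted p of 0.0607 and 0.0745. Over 19 alternatives the adjusted p ran from 0.000762 to 0.0607 and from 0.000377 to 0.0745.

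**Figure D5:**
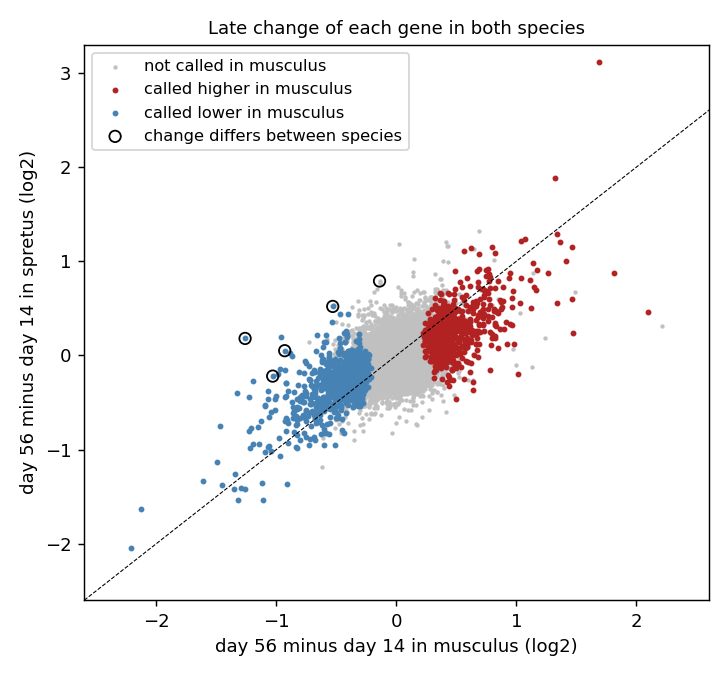
Late change of each gene, as day 56 minus day 14 in log2 units, in musculus (x axis) and spretus (y axis); the dashed line marks equal change. Red and blue points are genes called higher and lower in musculus, and black circles mark the 5 genes whose change differed between the species, all of them above the line of equal change.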

How the data were processed

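Per the labels' protocols, biotin-labelled cRNA made from whole-brain total RNA was read on 1-colour Affymetrix mouse arrays. The authors deposited 1 value per Ensembl gene and array in log2 units. That base is an inference from the range of the values. The array medians of 6.52 to 6.56 show that the arrays were already normalized to each other. How background, probe sets and scaling were handled is not stated in the labels. The deposited list of 46864 masked probes gave the number of such probes for each gene.

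With limma 3.58.1 in R 4.3.3 (lmFit, contrasts.fit, eBayes, two-sided), all 18 arrays entered 1 model with 6 group means, at 12 residual degrees of freedom (moderated, 17.1). The Benjamini-Hochberg adjustment ran over all 12346 genes within each contrast, and genes were called at an adjusted p under 0.05. The alternatives were fits of fewer arrays, other normalizations, a filter on dim genes, other variance settings, array weights, the replicate number as a block, and each array left out in turn. With 3 arrays a group, their number limits the precision.

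On simulated data with 50 genes changed at each size, the musculus late step recovered 6% of genes changed by 0.25, 62% by 0.5, 96% by 1 and 100% by 2 log2 units, over 12346 genes. False calls were 5.71% of calls. Far fewer genes were changed there than the 1469 called in the data, which makes the adjusted threshold stricter. The simulated noise was normal and independent between genes, so it held no array that stood apart in a set of genes. The shares recovered and the false calls are therefore not estimates for the real comparison.

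The members and gene lists were chosen with earlier results of these data known. The 61 lists, of gene symbols, had 0 members that could be matched and were not used. Genes were named by largest called change without overlap, at least 2-fold, at most 2 per direction, and for the difference between species by largest called difference, also at most 2.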

Additional observations from a re-analysis of the deposited data

Results flagged for a closer look

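The late change differed between the species in 5 genes by the test of the difference itself (limma, spretus change minus musculus change). ENSMUSG00000030560, with a difference of 1.44, and ENSMUSG00000055148, with 1.04, are described above. The other 3 differences were 0.98 (adjusted p = 0.00178), 0.93 (adjusted p = 0.0231) and 0.80 (adjusted p = 0.00987). The gene with 0.98 fell in musculus, at 9.31, 9.19 and 9.29 at day 56 against 10.06, 10.32 and 10.18 at day 14, and stood at 8.75, 8.88 and 8.77 against 8.74, 8.68 and 8.82 in spretus. It was called in all 19 alternatives (adjusted p up to 0.0300). The gene with 0.93 had musculus levels of 4.71 ± 0.05 at day 56 and 4.85 ± 0.11 at day 14 (SD, n = 3), close to the 4.76 that bounds the dimmest set of genes, and rose by 0.79 in spretus. It was called in 11 of 19 alternatives (adjusted p 0.00591 to 0.107). The gene with 0.80 fell by 1.03 in musculus, to 6.02 ± 0.04 at day 56 against 7.05 ± 0.13 at day 14, and had a change of -0.22 in spretus. It was called in 16 of 19 (adjusted p 0.00556 to 0.0745). The authors' list holds 10, 8 and 2 masked probes for the genes with 0.98, 0.93 and 0.80. It holds 3 for ENSMUSG00000030560 and 1 for ENSMUSG00000055148. Their part in the differences between the species was not tested.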

How the results depend on the processing

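The musculus counts of 627 risen and 842 fallen genes stayed within 1.5 times in 12 of 14 alternatives each; they were 310 and 436 with the 6 arrays alone, 411 and 546 with the 9 musculus arrays, and 450 to 505 and 571 to 663 with 1 array left out. The share of risen genes among those called lay between 41.6% and 45.7% under the 8 alternatives that keep every replicate of both groups. In spretus, 491 genes rose and 513 fell; 317 fell when its 6 arrays were fitted alone, and with 1 array left out 256 to 344 rose and 279 to 420 fell. The lowest counts came without spretus day 56 replicate 2 (256 and 292) or day 14 replicate 2 (256 and 279); without day 56 replicate 3 they were 283 and 327 and without day 14 replicate 3 they were 305 and 322. The 5 genes with a difference between the species became 1 with the 12 arrays of the contrast alone, 8 after quantile normalization and 12 with a trend and robust variances, and 3 to 11 with 1 array left out: 11 without musculus day 56 replicate 1, 8 without musculus day 14 replicate 1 or 3, and 3 without spretus day 56 replicate 1. With the replicate block, 551 genes rose and 705 fell in musculus, 396 and 418 in spretus, and 3 differed between the species. Deviations from the group means of same-numbered samples (replicates 1, 2 and 3) correlated between days 56 and 14 with r of -0.03, -0.06 and -0.01 in musculus and -0.11, -0.00 and 0.05 in spretus. Between the species, newborns gave r of -0.16, -0.09 and -0.16, pups of day 14 gave 0.03, -0.04 and 0.15, and adults gave 0.00, -0.03 and 0.01. Only replicate 3 at day 14 was above 0.1, and several negative values were as large in size. Between the species, samples of unlike number gave r from -0.17 to 0.14, and the number was not read as a pairing. The 0.15 of the day 14 replicate 3 samples was the highest value between the species. In the 27 genes low in musculus day 14 replicate 3, spretus replicate 3 was the lowest of its group in 25. The replicate block was set within each species, so a link between the species by number was not tested. Fewer arrays leave fewer degrees of freedom; the cause of the other shifts was not tested. Changes of 0.25 log2 units were mostly missed in simulated data, in which far fewer genes changed than were called in the data. No detection call was used, so levels below 4.76 give no exact fold. The alternatives planned for gene lists were not run, since no list member could be matched.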
